A study of Homo sapiens with 21 samples.

Results

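The RNA of 48 genes that drive DNA replication and mitosis was followed in OCI-AML3 and HEK293T cells under ER stress. The 48 genes were listed by name for their known part in the cell cycle, with no threshold on measured values but with earlier results of these data known, and each matched 1 of the 60671 rows of the gene count table through its Ensembl identifier. They comprise 5 G1 cyclins and cyclin-dependent kinases, 6 genes of S phase entry, 10 of origin licensing and firing, 4 of the replication fork and nucleotide supply, 9 mitotic cyclins, kinases and phosphatases, 10 of the spindle, kinetochore and checkpoint, 2 of chromosome structure or proliferation marking and 2 G2/M transcription factors. By the phase they are known for, 19 were taken as S phase genes and 22 as G2/M genes, and the other 7 were assigned to neither.

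Polyadenylated RNA was sequenced from 21 libraries, 3 in each of 7 groups. OCI-AML3, an established line of human acute myeloid leukaemia, was taken untreated at 0 h, after DMSO for 4 h or 24 h, and after tunicamycin at 1 μg/mL for 4 h or 24 h. HEK293T, an established line from human embryonic kidney, was taken after DMSO or tunicamycin at 1 μg/mL for 24 h. Tunicamycin blocks N-linked glycosylation, so that unfolded proteins build up in the endoplasmic reticulum (ER), and DMSO is its solvent. Each cell type is represented by a single line, and the labels number the replicates without saying whether they were separate cultures, so p-values measure the spread between these libraries.

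A dividing cell passes from G1 through S phase and G2 to mitosis. D-type cyclins with CDK4 and CDK6, then E-type cyclins with CDK2, inactivate the RB family and free the E2F factors that transcribe the genes of replication. In G1, ORC, CDC6 and CDT1 load the MCM2-7 helicase onto origins, and in S phase the loaded helicases fire. Genes of mitosis are transcribed later, under FOXM1 and MYBL2 (B-MYB), and are repressed in resting cells by the DREAM complex, which is known to bind CHR elements in their promoters. Cyclin B with CDK1, the Polo and Aurora kinases and the kinesins then build the spindle, and CDC20 activates the ligase that ends mitosis. In ER stress, the kinase PERK is known to lower translation, and loss of cyclin D1 protein is a known part of that response.

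Each library had between 13838480 and 19961819 counts (median 16657733), so 3 counts were 0.150 to 0.217 CPM. All 5 genes taken as a check of the treatment were higher after tunicamycin in each of the 3 comparisons. The 8 myeloid markers fixed for OCI-AML3 lay between 52.8 and 1066 CPM in its libraries. In HEK293T libraries 6 of them stayed below 0.3 CPM, while CEBPA lay at 10.4 to 14.1 CPM and CORO1A at 2.67 to 7.18 CPM. Of the 7 markers fixed for HEK293T, LIN28B lay at 102 to 115 CPM there and at most at 0.0715 CPM in OCI-AML3, while PAX2 and EPCAM stayed at or below 1.52 CPM in both lines. KRT8, KRT18 and CDH2 were higher in every HEK293T library than in any of OCI-AML3, and TUBB3 did not separate the lines (7.53 to 13.4 and 6.94 to 16.9 CPM).

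Levels are given as CPM, the counts of a gene over the TMM-scaled size of its library, and genes are compared with each other only per kilobase of exon. In untreated OCI-AML3 cells the highest level per kilobase was that of PCNA, the sliding clamp of DNA polymerases, at 309 CPM per kb. It was followed by MCM7, a subunit of the replicative helicase, at 173, TYMS, which makes thymidylate, at 121, MCM6 at 109 and MYBL2 at 107 CPM per kb. PCNA and MCM7 held the first 2 places in all 7 groups. The annotation lists pseudogenes named after PCNA, RRM2, TYMS, AURKA, CDC20 and other members, and reads shared with such copies were divided by RSEM. At the other end of the levels stood E2F2, an activator E2F, at 1.91 CPM per kb, the motor CENPE at 4.18, and CCND2 (cyclin D2), with 0 counts in all 3 untreated libraries, where 3 counts would be 0.166 to 0.181 CPM. Replicates of a group differed little for most members, with a coefficient of variation, taken as the median over groups, whose median over members was 4.71%. CCNE2, CENPF and KIF11 were the 3 members whose median over groups was above 10%. The libraries DMSO 4 h replicate 1 and DMSO 24 h replicate 3 of OCI-AML3 held lower levels than their replicates of several members. Among these were CDK6, CENPE, CENPF, KIF11, MKI67, TOP2A and CCNE2, of which MKI67, CENPF and CDK6 have 12845, 12471 and 12239 bases of exons. Both libraries are controls in the tunicamycin comparisons.

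Promoter sequences were available for 38 of the 48 members as windows of 250 bases before to 50 bases after the RefSeq transcription start (GRCh38.p14). They were searched on both strands for the E2F motif as TTTCCCGC, TTTGGCGC, TTTCGCGC or TTTGCCGC, the CHR as TTTGAA or TTTAAA, and the CCAAT box as CCAAT. Matches may overlap, and TTTAAA reads the same on both strands. The E2F motif occurred in 12 of 16 S phase promoters (75.0%), in 1 of 18 G2/M promoters (5.56%) and in 3.33% of all 27305 windows of the same length. The CHR letters occurred in 13 of 18 G2/M promoters (72.2%), in 3 of 16 S phase promoters (18.8%) and in 24.3% of all windows. CCAAT was found in 14 of 18 G2/M and 11 of 16 S phase promoters, against 35.7% of all windows, and CCAAT together with CHR in 11 of 18, 2 of 16 and 9.49%. In the 250 bases before the start alone, E2F letters were in 10 S phase and 0 G2/M promoters (2.79% of all windows) and CHR letters in 3 and 12 (22.1%). A match is a description of the letters and not evidence of a bound factor.

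**Figure D1:**
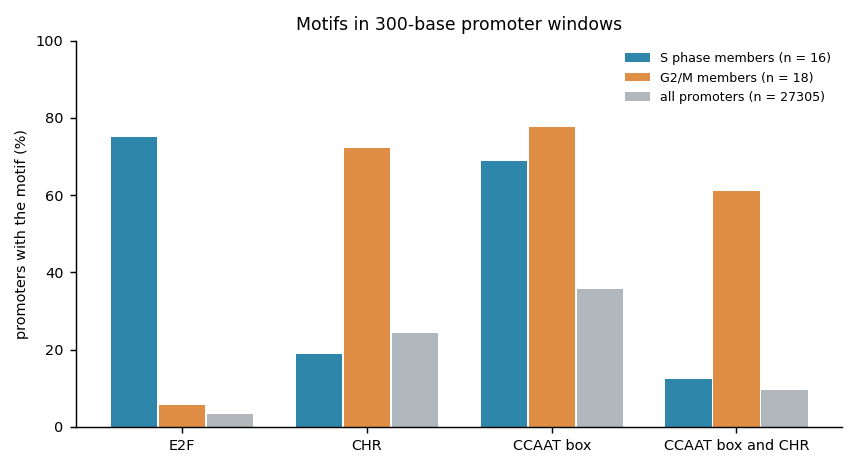
Percent of 300-base promoter windows with each motif on either strand, for 16 S phase members, 18 G2/M members and all 27305 windows. E2F letters were held by 75.0% of the S phase windows and CHR letters by 72.2% of the G2/M windows.

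The windows of the 4 G2/M members that were lowest after tunicamycin for 24 h, and of 3 S phase members (CDC6 and CDT1, which rose at 4 h, and CCNE1, which fell most there), are given here on the strand of each gene, from 5′ to 3′. Capitals mark the CCAAT box, the CHR and the E2F motif, each on either strand. PLK1 is at chr16:23678639-23678938, CDC20 at chr1:43358731-43359030, KIF20A at chr5:138178862-138179161 and CCNB1 at chr5:69166900-69167199. CDC6 is at chr17:40287629-40287928, CDT1 at chr16:88803539-88803838 and CCNE1 at chr19:29811741-29812040, and all 7 lie on the plus strand.
PLK1: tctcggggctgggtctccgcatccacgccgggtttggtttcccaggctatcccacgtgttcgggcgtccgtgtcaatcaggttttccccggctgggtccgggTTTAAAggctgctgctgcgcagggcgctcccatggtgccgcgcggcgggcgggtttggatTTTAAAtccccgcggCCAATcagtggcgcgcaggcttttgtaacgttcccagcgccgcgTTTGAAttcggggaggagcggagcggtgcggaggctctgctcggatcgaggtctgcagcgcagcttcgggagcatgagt
CDC20: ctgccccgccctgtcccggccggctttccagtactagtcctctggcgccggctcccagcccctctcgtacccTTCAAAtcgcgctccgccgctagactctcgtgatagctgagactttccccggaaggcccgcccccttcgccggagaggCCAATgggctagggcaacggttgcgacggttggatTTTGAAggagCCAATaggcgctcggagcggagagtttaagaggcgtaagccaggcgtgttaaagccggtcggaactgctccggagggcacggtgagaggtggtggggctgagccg
KIF20A: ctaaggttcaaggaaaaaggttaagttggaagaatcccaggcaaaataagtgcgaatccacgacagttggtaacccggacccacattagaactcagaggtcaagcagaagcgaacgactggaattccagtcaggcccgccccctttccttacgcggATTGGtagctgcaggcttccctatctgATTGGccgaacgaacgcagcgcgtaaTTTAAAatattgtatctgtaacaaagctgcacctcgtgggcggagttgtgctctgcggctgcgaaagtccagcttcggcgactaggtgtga
CCNB1: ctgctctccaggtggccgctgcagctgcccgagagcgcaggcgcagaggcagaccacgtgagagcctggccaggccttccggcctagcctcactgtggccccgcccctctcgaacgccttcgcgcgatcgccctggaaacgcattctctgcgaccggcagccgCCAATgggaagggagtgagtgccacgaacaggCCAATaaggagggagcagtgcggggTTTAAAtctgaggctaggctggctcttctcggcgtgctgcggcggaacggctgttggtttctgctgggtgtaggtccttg
CDC6: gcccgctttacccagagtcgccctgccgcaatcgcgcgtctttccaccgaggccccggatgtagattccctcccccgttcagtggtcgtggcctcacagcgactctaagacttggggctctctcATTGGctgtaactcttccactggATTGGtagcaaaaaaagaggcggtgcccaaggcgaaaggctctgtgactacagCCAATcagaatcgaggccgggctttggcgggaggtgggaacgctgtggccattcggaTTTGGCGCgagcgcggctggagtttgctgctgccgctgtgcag
CDT1: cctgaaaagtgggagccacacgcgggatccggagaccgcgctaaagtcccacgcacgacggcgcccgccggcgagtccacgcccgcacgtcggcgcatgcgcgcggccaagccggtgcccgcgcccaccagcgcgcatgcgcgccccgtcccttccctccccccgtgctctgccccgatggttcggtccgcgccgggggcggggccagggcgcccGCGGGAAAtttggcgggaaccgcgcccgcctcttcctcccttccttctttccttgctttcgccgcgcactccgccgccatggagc
CCNE1: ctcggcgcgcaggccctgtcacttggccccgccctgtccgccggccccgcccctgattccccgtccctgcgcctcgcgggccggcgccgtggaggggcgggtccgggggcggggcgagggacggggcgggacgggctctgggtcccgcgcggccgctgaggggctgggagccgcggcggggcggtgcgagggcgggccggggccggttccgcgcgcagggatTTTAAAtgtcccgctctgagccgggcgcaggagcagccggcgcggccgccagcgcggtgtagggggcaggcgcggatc

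Each of the 4 mitotic promoters held at least 1 CCAAT box and 1 CHR. Positions are those of the first letter of a match, with the start site as position 1 and no position 0. In CCNB1 the CCAAT boxes began at -87 and -55 and the CHR at -30, and in KIF20A the CCAAT boxes began at -94 and -67 and the CHR at -41. In PLK1 a CHR began at -29, -88 and -148. CDC6 and CDT1 held 1 E2F motif each, at 8 and -35, and CCNE1 held none of the E2F spellings but a TTTAAA at -28. The list of all 38 and its shares were chosen with the expression results known.

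The first comparison asked how 4 h of tunicamycin changed these genes in OCI-AML3. Cyclins of G1 and of S phase entry led the decrease, with CCNE1, CCNE2 and CCND1 all more than 2-fold lower. The licensing factor CDC6 rose 2.10-fold and its partner CDT1 1.60-fold. Of the 47 members that could be tested, 28 were lower and 4 higher at an adjusted p of at most 0.05 (edgeR), against 18.4% of all 14012 genes lower and 19% higher. With a fold change above 2 in addition, 4 members were called, against 4.96% of all genes. In these bulk samples, fewer cells in a phase and less RNA per cell cannot be told apart.

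Cyclin E1 (CCNE1), which activates CDK2 at the entry to S phase, stood at 38.4, 34.2 and 34.1 CPM in the 3 DMSO libraries and at 13.2, 11.5 and 11.9 CPM in the 3 tunicamycin libraries. It was 2.91-fold lower (log2 fold change -1.54, SE 0.09, adjusted p = 9.1e-12), the largest change of any member in this comparison, and the groups did not overlap. Cyclin E2 (CCNE2) went from 23.8, 27.2 and 32.5 CPM to 10.6, 11.4 and 13.7 CPM (log2 fold change -1.23, SE 0.15, adjusted p = 1e-06). CCND1, the cyclin D1 gene at chr11:69641156-69654474, went from 72.9, 79.8 and 83.9 CPM to 34.4, 32.3 and 34.1 CPM (log2 fold change -1.23, SE 0.08, adjusted p = 6.8e-11). All 3 cyclins were thus separated from DMSO in every library.

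Among the other genes of S phase entry, CDC25A, the phosphatase that activates CDK2, fell from 78.4, 68.5 and 72.7 CPM to 46.2, 45.2 and 41.9 CPM (log2 fold change -0.72, SE 0.08, adjusted p = 1.2e-07). E2F2 fell by 1.37-fold and CDK2 by 1.15-fold (adjusted p = 0.0039 and 0.013). E2F1, the activator E2F best known for this step, stood at 70.8, 63.4 and 61.7 CPM with DMSO and 70.0, 72.7 and 73.2 CPM with tunicamycin and did not pass the test (adjusted p = 0.18). In the G1 group, CCND3 was lower (log2 fold change -0.32, SE 0.08, adjusted p = 0.0016), CDK6 higher (log2 fold change 0.39, SE 0.13, adjusted p = 0.024) and CDK4 not called (0.05). So 5 of 6 entry genes were called lower and none higher, against 18.4% of all genes lower and 19% higher.

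Origin licensing genes split. CDC6, the ATPase that brings the helicase to origins, stood at 115, 94.9 and 104 CPM with DMSO and 231, 218 and 210.5 CPM with tunicamycin (log2 fold change 1.07, SE 0.07, adjusted p = 4.4e-11). CDT1, its partner in loading, went from 93.9, 94.8 and 91.1 CPM to 155, 152 and 139 CPM (log2 fold change 0.67, SE 0.09, adjusted p = 5.2e-06). For both, every tunicamycin library was above every DMSO library. In the same group ORC1, MCM2, MCM3, MCM4 and GINS2 were lower, by 1.21- to 1.42-fold, while MCM5, MCM6 and MCM7 lay between 0.06 and 0.09 on the log2 scale and were not called. Of the 6 MCM genes, 3 were thus called lower and 3 were not called, against 18.4% of all genes lower.

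At the fork, all 4 genes were lower, against 18.4% of all genes. PCNA led them, at 456, 369.8 and 391 CPM with DMSO and 270.0, 283 and 258 CPM with tunicamycin (log2 fold change -0.59, SE 0.08, adjusted p = 2.6e-06), followed by TYMS, RRM1 and RRM2, of which the RRM genes encode the subunits of ribonucleotide reductase.

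Mitotic genes were divided as well. CDK1, the kinase of cyclin B, went from 97.1, 115 and 132 CPM to 79.4, 76.4 and 80.7 CPM (log2 fold change -0.54, SE 0.11, adjusted p = 0.00044), and CCNA2, CCNB1 and CDC25B were lower by 1.27- to 1.33-fold. BUB1B, which encodes the checkpoint protein BUBR1, went from 140.2, 134 and 145 CPM to 86.5, 83.3 and 87.2 CPM (log2 fold change -0.70, SE 0.06, adjusted p = 3.2e-09) without overlap. In contrast PLK1, CDC20, AURKA, AURKB, TPX2 and CCNB2 lay between -0.04 and 0.07 on the log2 scale, and none of these 6 was called. CDC25C, which activates CDK1, was called higher (log2 fold change 0.44, SE 0.11, adjusted p = 0.0028), with DMSO libraries at 24.8, 17.8 and 18.5 CPM and tunicamycin libraries at 24.3, 30.3 and 28.2 CPM that overlapped. MKI67, the gene of the proliferation mark Ki-67, went from 397, 542 and 518 CPM to 328, 320.5 and 359 CPM (log2 fold change -0.53, SE 0.11, adjusted p = 0.00033), and TOP2A fell 1.37-fold. FOXM1 stood at 148, 151 and 143 CPM with DMSO and 142, 136 and 138 CPM with tunicamycin (log2 fold change -0.09, SE 0.07, adjusted p = 0.37), so neither it nor MYBL2 was called.

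Of the 32 calls at 4 h, 28 stood under every alternative. The calls of CDK2 (-0.20) and CDK6 were lost without DMSO replicate 1 (log2 -0.16, adjusted p = 0.06, and 0.24, adjusted p = 0.14). KIF11 was lost without DMSO replicate 3 (-0.28, adjusted p = 0.052), and CDK6 and RRM2 without tunicamycin replicate 3 (0.33, adjusted p = 0.095, and -0.15, adjusted p = 0.069).

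After 24 h in OCI-AML3 the largest decreases were those of mitosis genes. PLK1, CDC20, KIF20A and CCNB1 were all more than 2-fold lower, and every one of the 9 mitotic cyclins, kinases and phosphatases was called lower. CCND1 and CCNE2, low at 4 h, were not called at 24 h. Of 47 members, 35 were lower and 1 was higher (CDC6), against 23.9% of all genes lower and 27.2% higher. With the fold change threshold 4 members were called, against 6.54% of all genes.

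PLK1, the Polo kinase of mitotic entry and spindle assembly, stood at 231, 231 and 218 CPM in the DMSO libraries and at 102, 96.5 and 87.3 CPM in the tunicamycin libraries (2.38-fold lower, log2 fold change -1.25, SE 0.07, adjusted p = 1.3e-12). CDC20, the activator of the anaphase-promoting complex, went from 189, 198 and 191 CPM to 89.9, 84.4 and 71.8 CPM (log2 fold change -1.24, SE 0.07, adjusted p = 6.7e-12). KIF20A, a kinesin of the central spindle and of cytokinesis, went from 113, 114 and 118 CPM to 50.9, 52.4 and 51.1 CPM (log2 fold change -1.16, SE 0.06, adjusted p = 1.3e-13). For all 3 genes every tunicamycin library lay below every DMSO library.

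Cyclin B1 (CCNB1) went from 202, 208 and 216 CPM to 104, 106 and 94.1 CPM (log2 fold change -1.04, SE 0.06, adjusted p = 3.6e-12), which became -0.99 without tunicamycin replicate 3. Survivin (BIRC5), a subunit of the chromosomal passenger complex, went from 267, 269.5 and 261 CPM to 154, 147 and 123 CPM (log2 fold change -0.92, SE 0.08, adjusted p = 1.7e-09). Aurora A (AURKA), a kinase of the spindle poles, went from 91.3, 96.9 and 95.0 CPM to 52.3, 53.6 and 48.2 CPM (log2 fold change -0.88, SE 0.06, adjusted p = 1.5e-10). No library of these 3 overlapped between the groups, and the same held for CCNA2, CCNB2, CDK1, CDC25B, CDC25C and AURKB, which were 1.56- to 1.82-fold lower. Of the 48 members 36 lay wholly below DMSO, 1 above and 11 overlapped, and the share over all genes was not counted.

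In the spindle and checkpoint group 8 of 10 genes were lower, against 23.9% of all genes. TPX2, BUB1B, BUB1 and MAD2L1 were 1.48- to 1.81-fold lower. CENPE (log2 fold change -0.71, SE 0.23, adjusted p = 0.011) was called with overlapping groups and was lost without DMSO replicate 2 (-0.45, adjusted p = 0.12). CENPF and KIF11 lay at -0.40 and -0.23 and were not called, but each was called lower under 11 of 30 alternatives. Without DMSO replicate 3 they were -0.61 and -0.31 (adjusted p = 0.005 and 0.024), without tunicamycin replicate 3 -0.51 and -0.32 (0.049 and 0.027), and with GC and length trends removed -0.69 and -0.51 (6.9e-05 and 4.1e-07). MKI67 went from 468, 444 and 346 CPM to 272, 232 and 287 CPM (log2 fold change -0.67, SE 0.11, adjusted p = 2.1e-05), and TOP2A fell 1.31-fold. The transcription factors of these genes were lower too, MYBL2 from 250.2, 274 and 246 CPM to 196, 184 and 154 CPM (log2 fold change -0.53, SE 0.09, adjusted p = 2.5e-05) and FOXM1 1.37-fold.

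None of the licensing and fork genes had a fold change above 2 at 24 h, and they were not tested against the mitosis genes. ORC1, a subunit of the origin recognition complex, led the licensing group, at 62.4, 63.0 and 60.6 CPM with DMSO and 46.9, 36.0 and 38.7 CPM with tunicamycin (log2 fold change -0.61, SE 0.08, adjusted p = 8.1e-07). MCM2, MCM7 and GINS2 were 1.39- to 1.42-fold lower, while MCM6 lay at -0.10 and was not called. CDC6 stood at 88.1, 84.0 and 92.1 CPM with DMSO and 113, 127 and 109 CPM with tunicamycin (log2 fold change 0.40, SE 0.07, adjusted p = 9.4e-05), higher in each library. The mean of CDT1 was 182 CPM with DMSO and 146 CPM with tunicamycin, against 93.2 and 149 CPM at 4 h. CDT1 was called lower (log2 fold change -0.32, SE 0.09, adjusted p = 0.0072), opposite to 4 h, but the call was lost without tunicamycin replicate 3 (-0.22, adjusted p = 0.06). It was also lost with GC and length trends removed (-0.11, adjusted p = 0.13). TYMS went from 228, 220.4 and 249 CPM to 170.1, 182 and 159 CPM (log2 fold change -0.45, SE 0.07, adjusted p = 9.6e-06), RRM1 fell 1.29-fold, and PCNA and RRM2 were not called (-0.15 and -0.08). PCNA was called lower under 7 of 30 alternatives (adjusted p = 0.039 without tunicamycin replicate 2), and RRM2 and MCM6 under 6 each (adjusted p = 0.0044 and 0.0013 with GC and length trends removed). For all 3 these included the omission of any 1 HEK293T DMSO library.

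Of the genes of G1 and S phase entry, CDC25A went from 59.0, 60.0 and 53.7 CPM to 44.3, 45.7 and 38.5 CPM (log2 fold change -0.43, SE 0.08, adjusted p = 0.0001). CDK4, the cyclin D partner, went from 277, 311 and 310.2 CPM to 209.9, 245 and 186 CPM (log2 fold change -0.49, SE 0.09, adjusted p = 0.00015). CCND1 stood at 134, 118 and 138 CPM with DMSO and 151, 129.8 and 153 CPM with tunicamycin (log2 fold change 0.15, SE 0.08, adjusted p = 0.11), and CCNE2 at 19.7, 18.6 and 12.9 CPM and 19.1, 22.2 and 24.5 CPM (log2 fold change 0.36, SE 0.15, adjusted p = 0.05). The groups of both overlapped, and the adjusted p of CCNE2 lay just above the threshold before rounding. CCNE2 was called higher under 8 of 30 alternatives, among them without DMSO replicate 1 or 2 (adjusted p = 0.025 and 0.049) or tunicamycin replicate 1 (0.027), and CCND1 without tunicamycin replicate 2 (0.028). CDK6 was not called (0.32, adjusted p = 0.052) but was called higher under 6 alternatives, among them without DMSO or tunicamycin replicate 2 (adjusted p = 0.013 and 0.025). CCNE1 was called at -0.26 ± 0.09 (SE, adjusted p = 0.024) and lost without DMSO replicate 2 (-0.22, adjusted p = 0.089) and without tunicamycin replicate 2 or 3 (-0.23, adjusted p = 0.076, and -0.21, adjusted p = 0.11).

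Without single libraries, the calls of CCND3 (-0.21), MCM3 (-0.16) and MCM5 (-0.27) were also lost. Tunicamycin replicate 3 ended all 3 (adjusted p = 0.16, 0.12 and 0.077) and DMSO replicate 2 ended those of CCND3 and MCM5 (adjusted p = 0.076 and 0.058). Of the 36 calls 30 stood under every alternative.

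**Figure D2:**
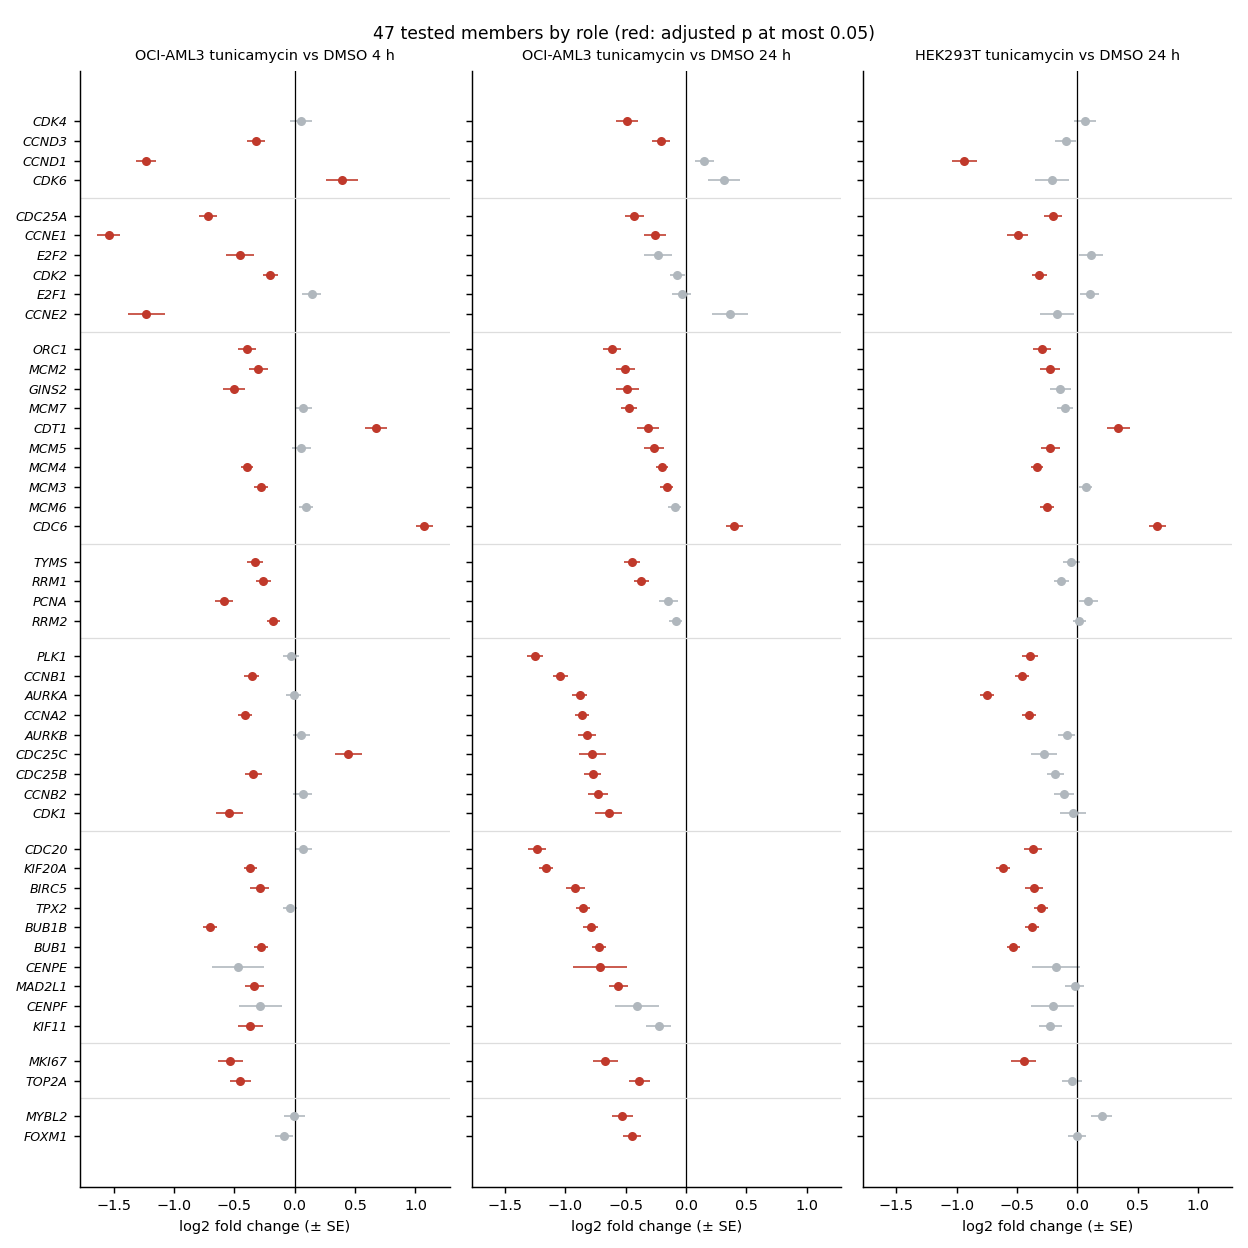
Log2 fold change (point) ± SE (line) of the 47 tested members in the 3 tunicamycin comparisons, grouped by role from G1 cyclins at the top to G2/M transcription factors at the bottom. Red points have an adjusted p of at most 0.05. CCNE1 at 4 h (-1.54) and PLK1 at 24 h (-1.25) are the lowest points of the 2 OCI-AML3 panels.

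The medians of the S phase and G2/M lists were close at 4 h and apart at 24 h, with no test between the lists. The median log2 fold change at 4 h was -0.30 over 19 S phase members, with 13 lower and 2 higher, and -0.31 over 22 G2/M members, with 12 lower and 1 higher. The median of all genes was -0.01, with 18.4% of them lower and 19% higher. At 24 h the medians were -0.26 for S phase (12 lower, 1 higher) and -0.77 for G2/M (20 lower, none higher), against 0.05 for all genes (23.9% lower, 27.2% higher). All 22 G2/M members had a negative fold change at 24 h, from -1.25 to -0.23, and the S phase members ranged from -0.61 to 0.40.

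The same was seen in the mean log2 level of each list per library, relative to untreated cells. The G2/M list stood at -0.04, -0.01 and -0.17 in the 3 DMSO libraries at 24 h and at -0.79, -0.83 and -0.86 in the tunicamycin libraries. At 4 h it stood at 0.01, 0.04 and 0.09 with DMSO and at -0.19, -0.18 and -0.19 with tunicamycin. The S phase list stood at 0.09, -0.04 and 0.01 with DMSO and -0.21, -0.23 and -0.27 with tunicamycin at 4 h, and at -0.13, -0.10 and -0.16 with DMSO and -0.31, -0.33 and -0.44 with tunicamycin at 24 h. In all 4 cases the groups did not overlap, and only the G2/M list at 24 h was lower by more than 0.5.

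**Figure D3:**
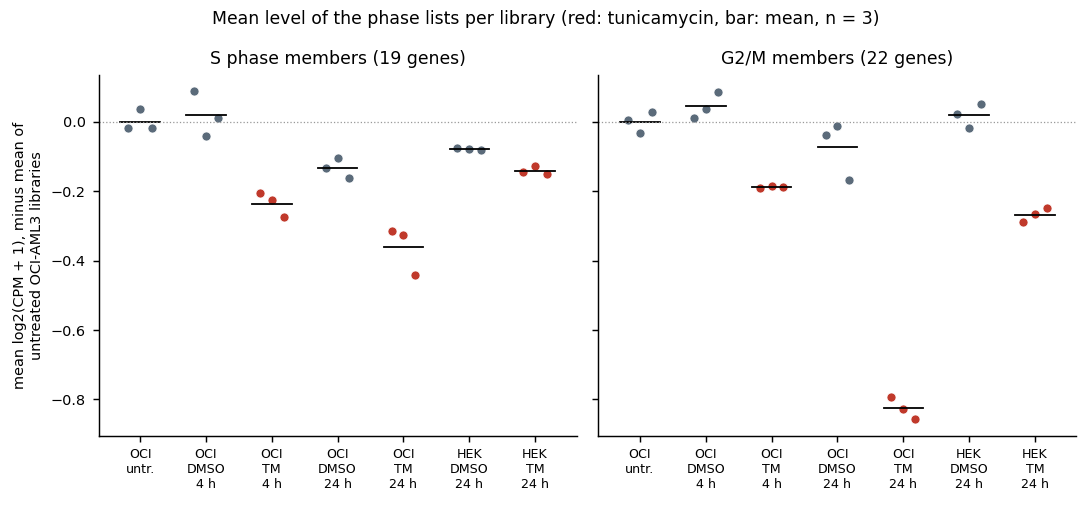
Mean log2(CPM + 1) of the 19 S phase members (left) and the 22 G2/M members (right) in each of the 21 libraries, minus the mean of the untreated OCI-AML3 libraries. Red points are tunicamycin libraries and bars are means of 3. G2/M members lie at -0.79 to -0.86 after tunicamycin for 24 h in OCI-AML3 and at -0.25 to -0.29 in HEK293T.

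The 2 times were compared gene by gene through an interaction, which is the log2 effect of tunicamycin at 24 h minus its effect at 4 h. It was lower at 24 h for 20 members and higher for 6, against 17.6% and 17.5% of all genes. Of the G2/M members 14 were lower and none higher, and of the S phase members 4 were lower and 5 higher. The 5 became 3 without OCI-AML3 tunicamycin replicate 2 at 4 h, which ended the calls of CDC25A (0.29, adjusted p = 0.045, and 0.12 without it) and MCM4 (0.19, adjusted p = 0.035, and 0.16 without it). The same happened without OCI-AML3 DMSO or tunicamycin replicate 3 at 4 h, DMSO replicate 3 at 24 h, any 1 HEK293T DMSO library or HEK293T tunicamycin replicate 3 (adjusted p = 0.063 to 0.15). In all, CDC25A and MCM4 were lost under 20 and 14 of 30 alternatives. Of the 4 lower, MCM5 (-0.32, adjusted p = 0.033) was lost under 6, and MCM6, not called, passed lower under 9. CDC20 (-1.31 ± 0.10 SE, adjusted p = 4e-09), CDC25C (-1.22 ± 0.16, adjusted p = 5.3e-06) and PLK1 (-1.22 ± 0.10, adjusted p = 3.6e-09) had the largest negative interactions. On the positive side stood cyclins of G1 and S phase entry, CCNE2 (1.59 ± 0.21, adjusted p = 8.1e-06), CCND1 (1.38 ± 0.12, adjusted p = 9.2e-09) and CCNE1 (1.29 ± 0.13, adjusted p = 2.1e-07). The D-type cyclin gene CCND3 gave no call (0.12, adjusted p = 0.42), except with GC and length trends removed (0.23, adjusted p = 0.012). The effect on PCNA was higher at 24 h than at 4 h as well (0.44, adjusted p = 0.0036). The effects on CDC6 and CDT1 were lower (-0.67 and -0.99, adjusted p = 3e-05 and 7.4e-06). For CDT1 the mean with tunicamycin was 149 CPM at 4 h and 146 CPM at 24 h, while that with DMSO went from 93.2 to 182 CPM. BUB1B, MAD2L1, CDK1 and MKI67 gave no call, with interactions between -0.23 and -0.09.

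**Figure D4:**
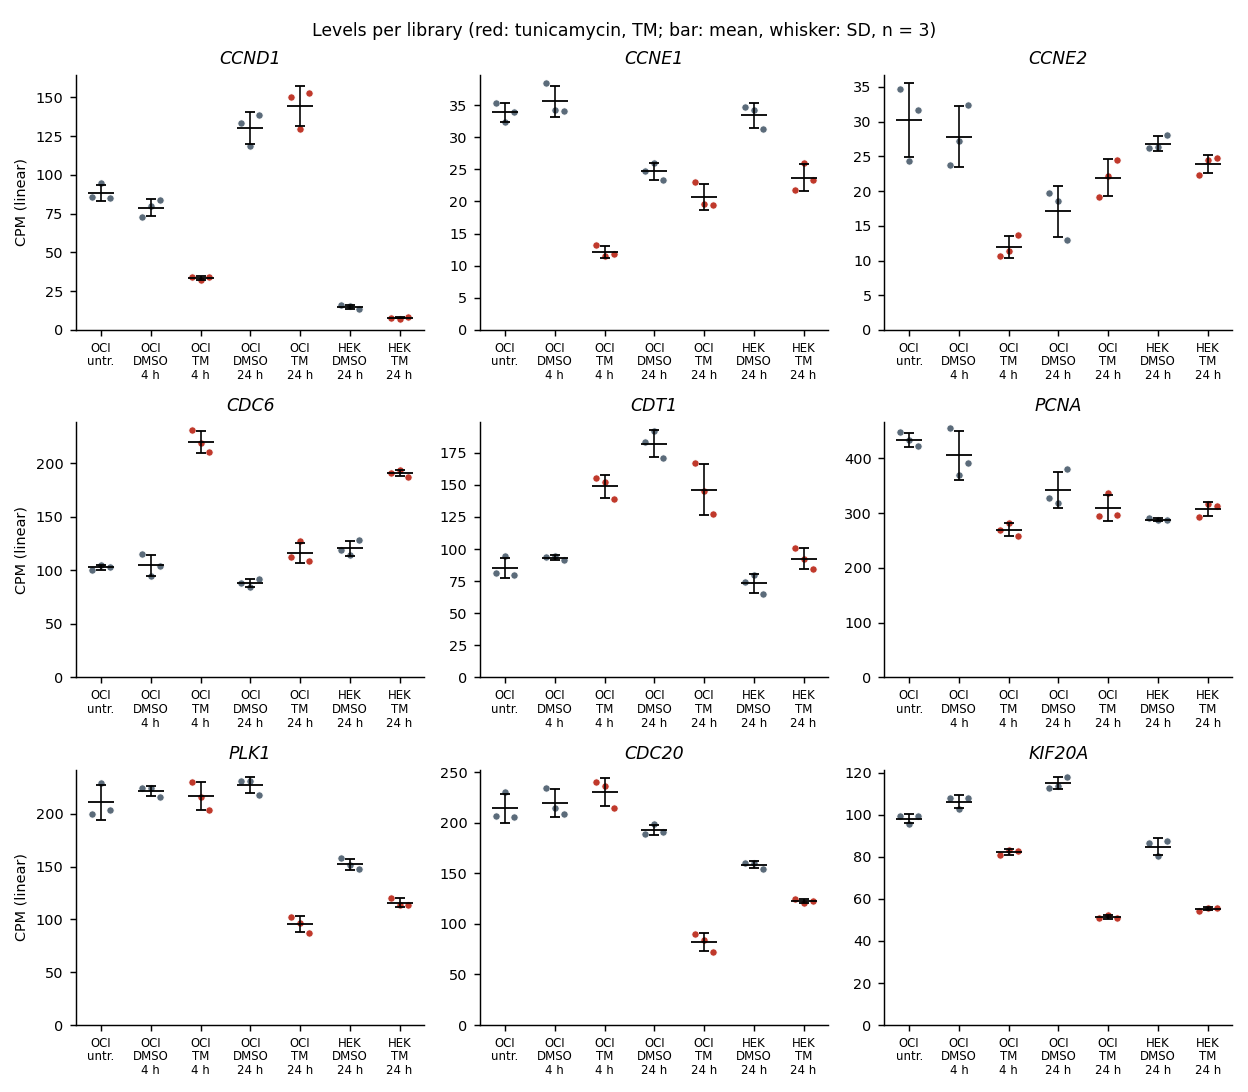
CPM on a linear axis in each of the 21 libraries for 9 members. Red points are tunicamycin libraries, bars are means and whiskers SD of 3 replicates. CCND1, CCNE1 and CCNE2 are low at 4 h of tunicamycin, CDC6 is high there, and PLK1, CDC20 and KIF20A are low at 24 h in OCI-AML3 and, by less, in HEK293T.

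In HEK293T cells 24 h of tunicamycin lowered 20 members and raised 2, against 13% of all genes lower and 12.7% higher. Changes were smaller, and 0 members passed both thresholds, against 2.13% of all genes. Cyclin D1 (CCND1) fell most, AURKA and KIF20A next, and CDC6 and CDT1 were the 2 that rose. By limma voom, DESeq2 and the replicate-block fit 0 members passed both thresholds too, while CCND1 reached -1.01 without DMSO replicate 3, and CCND2 was the 1 that passed both where the filter was lowered.

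CCND1 stood at 15.9, 15.5 and 13.4 CPM with DMSO and 7.89, 7.36 and 8.13 CPM with tunicamycin (log2 fold change -0.94, SE 0.10, adjusted p = 4.1e-07). AURKA went from 113, 110.5 and 114 CPM to 69.5, 64.6 and 66.8 CPM (log2 fold change -0.75, SE 0.06, adjusted p = 2.7e-09), and KIF20A from 86.8, 80.4 and 87.5 CPM to 54.5, 55.9 and 55.7 CPM (log2 fold change -0.62, SE 0.06, adjusted p = 1e-08). None of these 3 overlapped between the groups.

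BUB1, a kinase of the spindle checkpoint, went from 151, 142 and 150.4 CPM to 101, 103 and 102 CPM (log2 fold change -0.53, SE 0.06, adjusted p = 2e-07). CCNE1 went from 34.7, 34.2 and 31.2 CPM to 21.8, 26.1 and 23.3 CPM (log2 fold change -0.49, SE 0.09, adjusted p = 0.00018), and MKI67 from 402, 409 and 429.9 CPM to 309.8, 309.5 and 292 CPM (log2 fold change -0.45, SE 0.10, adjusted p = 0.0031). CDC6 was at 119, 114 and 128 CPM with DMSO and 191, 194 and 188 CPM with tunicamycin (log2 fold change 0.66, SE 0.07, adjusted p = 2.2e-07). Again every library of one group lay on one side of the other group, upward for CDC6 and downward for the rest.

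CDT1 was at 74.6, 79.7 and 65.3 CPM with DMSO and 101, 92.2 and 84.5 CPM with tunicamycin (1.27-fold higher, adjusted p = 0.01), a call that was lost without DMSO replicate 3 (0.26, adjusted p = 0.071) or tunicamycin replicate 1 (0.27, adjusted p = 0.07). CCNB1, CCNA2, PLK1, BUB1B, CDC20, BIRC5 and TPX2 were 1.23- to 1.38-fold lower. No gene of the fork and nucleotide group was called, and RRM1, the farthest of them from 0, stood at 237, 232 and 237 CPM and 205, 215 and 223 CPM (log2 fold change -0.13, SE 0.06, adjusted p = 0.12). RRM1 was called lower under 3 of 30 alternatives, and PCNA was called higher with the HEK293T groups alone (adjusted p = 0.039). CDC25B and CDC25C (-0.18 and -0.28) were not called but were called lower under 7 and 4 alternatives. Of the transcription factors, MYBL2 stood at 225, 226 and 210.3 CPM with DMSO and 260.5, 253 and 247 CPM with tunicamycin (log2 fold change 0.20, SE 0.09, adjusted p = 0.086), which was called with the replicate block (adjusted p = 0.039), with the HEK293T groups alone (0.00024), with GC and length trends removed (0.0015) and without OCI-AML3 DMSO 4 h replicate 1 or tunicamycin 24 h replicate 3 (0.044 and 0.042). FOXM1 was not called. CDK1 and MAD2L1, which had fallen in OCI-AML3, lay at -0.03 and -0.02.

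The median was -0.29 over the G2/M members, of which 11 were called lower and all 22 were below 0, and -0.13 over the S phase members, with 7 lower and 2 higher. That of all genes was -0.01, with 13% of them lower and 12.7% higher. The calls of CDC25A, MCM2 and MCM5 (-0.20, -0.23 and -0.22) were close to the threshold. MCM2 was lost without any 1 of the 6 HEK293T libraries (adjusted p up to 0.12), CDC25A without any of 5 of them (all but DMSO replicate 1, up to 0.18) and MCM5 without any of 4 (DMSO replicates 1 and 2 and tunicamycin replicates 2 and 3, up to 0.17). CDC25A also ended without 2 OCI-AML3 libraries (untreated replicate 3 and tunicamycin 4 h replicate 2) and MCM5 without 6 (untreated replicates 1 and 3, DMSO 4 h replicate 2, tunicamycin 4 h replicates 1 and 2, and DMSO 24 h replicate 1), with an adjusted p of 0.05 to 0.053.

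The difference between the cell lines at 24 h was tested as the effect in HEK293T minus that in OCI-AML3. It was above 0 for 24 members, which fell less or rose more in HEK293T, and below 0 for 3, against 12.7% and 13% of all genes. Of the G2/M members 16 were above 0 and none below, and of the S phase members 6 and none. Without OCI-AML3 tunicamycin replicate 3 at 24 h those 6 were 3, since MCM3, ORC1 and RRM1 were lost (adjusted p = 0.087, 0.075 and 0.067), and without HEK293T tunicamycin replicate 2 the same 3 were lost (0.06, 0.075 and 0.086). They were lost without OCI-AML3 DMSO replicate 1 at 24 h too (0.056, 0.052 and 0.085), where GINS2 passed (0.045). In all, RRM1 was lost under 13 of 30 alternatives, ORC1 under 8 and MCM3 under 7, while GINS2, MCM2 and CDC6, which were not called, passed above 0 under 20, 8 and 9. Of the G2/M calls, TOP2A was lost under 8 and CDC25C under 3. CDC20 (0.87 ± 0.10 SE, adjusted p = 2e-06) and PLK1 (0.86 ± 0.10, adjusted p = 8.4e-07) differed most in that direction. CCND1 was the reverse, lower in HEK293T and not in OCI-AML3 (-1.09 ± 0.13, adjusted p = 2.3e-06). AURKA, which fell in both lines, had an interaction of 0.13 (adjusted p = 0.28). The other 2 calls below 0, CDK6 (-0.53) and CDK2 (-0.24), both had an adjusted p of 0.049 and were each lost under 20 alternatives, among them without any 1 of the 6 HEK293T libraries (adjusted p up to 0.13 and 0.2).

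Across the 3 tunicamycin comparisons, which share no libraries, 12 members were called lower in all: BIRC5, BUB1, BUB1B, CCNA2, CCNB1, CCNE1, CDC25A, KIF20A, MCM2, MCM4, MKI67 and ORC1. Without CCNE1, CDC25A and MCM2 these were 9 under every alternative. Over all genes 18.4%, 23.9% and 13% were called lower in the comparisons taken singly. The share of all genes lower in all 3 was not counted, so these counts have no background. CDC6 was the 1 member higher in all 3 comparisons, and it was so under every alternative. In the single comparisons 19%, 27.2% and 12.7% of all genes were higher, and the share higher in all 3 was not counted. E2F1 and CENPF were called in none, although CENPF was called lower under 3 alternatives at 4 h, 11 at 24 h and 1 in HEK293T, and E2F1 was called higher under 1 at 4 h and, with GC and length trends removed, at 24 h in OCI-AML3 (0.15, adjusted p = 0.045). CDC25C and CDT1 were called in opposite directions, CDC25C higher at 4 h and lower at 24 h in OCI-AML3. The lower call of CDT1 at 24 h in OCI-AML3 was lost under 2 of 30 alternatives.

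**Figure D5:**
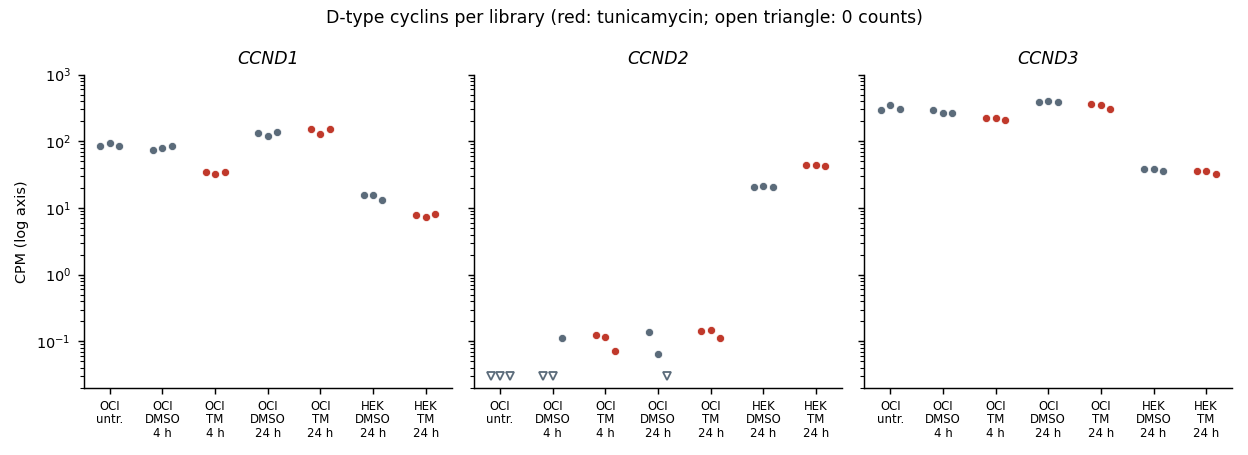
CPM on a log axis of the 3 D-type cyclin genes in each of the 21 libraries. Red points are tunicamycin libraries and open triangles at the foot stand for 0 counts. CCND1 and CCND3 are the D-type cyclins of OCI-AML3, and CCND2 lies at 20.6 to 44.0 CPM in HEK293T and at no more than 0.150 CPM in OCI-AML3.

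The D-type cyclins, which couple growth signals to CDK4 and CDK6, differed between the lines. CCND3 stood at 289.5, 352 and 306 CPM in untreated OCI-AML3 cells, 294, 269.6 and 262 CPM after DMSO for 4 h and 226, 222 and 211 CPM after tunicamycin for 4 h. At 24 h it was at 389, 400.3 and 382 CPM with DMSO and 367, 345 and 302 CPM with tunicamycin. In HEK293T it was 10.4-fold lower with DMSO, at 38.3, 38.5 and 35.7 CPM with DMSO and 35.8, 36.4 and 32.8 CPM with tunicamycin, with no call between these (log2 fold change -0.10, SE 0.08, adjusted p = 0.43). CCND1 in untreated OCI-AML3 cells was at 86.0, 94.6 and 84.8 CPM.

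CCND2 was the member left out of the main test, since it had 1 CPM in 6 libraries only. Its counts in OCI-AML3 were 0 to 2 per library. In HEK293T it stood at 20.6, 21.3 and 20.6 CPM with DMSO and at 43.5, 44.0 and 42.2 CPM with tunicamycin. Every tunicamycin library was thus above every DMSO library, opposite to CCND1 in the same cells. Where the filter was lowered to 1 CPM in 3 libraries, the log2 fold change of CCND2 in HEK293T was 1.05 (adjusted p = 3.6e-07), and with no filter beyond 1 count it was 1.04 (adjusted p = 2.3e-14). CCND2 lies at chr12:4269771-4305353 and overlaps the gene CCND2-AS1, and whether reads were assigned by strand is not given in the sources used here.

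Members also differed between the solvent controls of OCI-AML3, DMSO at 24 h against DMSO at 4 h. CDT1 and the cyclins CCND1 and CCND3 were higher, and CCNE2, CCNE1 and KIF11 lower. In all 19 members were lower and 4 higher, against 21.7% of all genes lower and 20.9% higher. 0 members passed both thresholds, against 4.15% of all genes, and the count was 0 by limma voom and DESeq2 as well. These libraries are also the controls of the tunicamycin comparisons, so the values are set side by side with no test between them.

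CDT1 stood at 93.9, 94.8 and 91.1 CPM at 4 h and 183, 192 and 171 CPM at 24 h (log2 fold change 0.96, SE 0.09, adjusted p = 4.8e-08), and its log2 fold change was 1.01 without DMSO 24 h replicate 3. CCND1 went from 72.9, 79.8 and 83.9 CPM to 134, 118 and 138 CPM (log2 fold change 0.72, SE 0.08, adjusted p = 3e-07), and CCND3 rose with it (log2 fold change 0.51, SE 0.07, adjusted p = 1.4e-05). CDC25C was higher too, from 24.8, 17.8 and 18.5 CPM to 28.1, 27.1 and 25.8 CPM (log2 fold change 0.41, SE 0.11, adjusted p = 0.0049). These 4 were all the members called higher, and none had overlapping groups.

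In the other direction, CCNE2 went from 23.8, 27.2 and 32.5 CPM at 4 h to 19.7, 18.6 and 12.9 CPM at 24 h (log2 fold change -0.70, SE 0.15, adjusted p = 0.00062). CCNE1 went from 38.4, 34.2 and 34.1 CPM to 24.7, 25.9 and 23.4 CPM (log2 fold change -0.53, SE 0.09, adjusted p = 6.1e-05). KIF11, the kinesin that separates spindle poles, went from 106, 128 and 139 CPM to 87.2, 91.8 and 74.1 CPM (log2 fold change -0.56, SE 0.10, adjusted p = 0.00016). All 4 fork and nucleotide genes were lower, against 21.7% of all genes. RRM1 went from 248, 210.2 and 238 CPM to 189, 174 and 194 CPM (log2 fold change -0.32, SE 0.06, adjusted p = 0.00025), and the others fell by 1.12- to 1.21-fold.

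TOP2A was at 505, 559.7 and 613 CPM at 4 h and 481, 462 and 414 CPM at 24 h (log2 fold change -0.31, SE 0.09, adjusted p = 0.0063), and FOXM1 at 148, 151 and 143 CPM and 141, 129.7 and 121 CPM (log2 fold change -0.17, SE 0.07, adjusted p = 0.065). With GC and length trends removed TOP2A was at -0.06 and not called (adjusted p = 0.26). PLK1, AURKA, TPX2, BIRC5 and CCNB1 lay between -0.09 and 0.03 and were not called. The median was -0.22 over the S phase members, with 12 lower and 1 higher, and -0.11 over the G2/M members, with 6 lower and 1 higher, against -0.02 over all genes (21.7% lower, 20.9% higher). Scaling by library size without TMM moved the median of all genes to -0.14 and gave 30 members lower and 4 higher. The G2/M median was then -0.23, and with GC and length trends removed it was -0.05.

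Of these 23 calls, 14 stood under every alternative. Leaving out DMSO 4 h replicate 1 ended those of PCNA (-0.15, adjusted p = 0.1), CDC6 (-0.18, adjusted p = 0.056) and CDC20 (-0.14, adjusted p = 0.15). PCNA was also lost without DMSO 24 h replicate 1 or 2 (adjusted p = 0.06 and 0.079). Those of ORC1 and TOP2A ended without DMSO 4 h replicate 3 (adjusted p = 0.054 and 0.052), that of CDK6 without DMSO 4 h replicate 2 (-0.34, adjusted p = 0.058), those of ORC1 and CDK6 without DMSO 24 h replicate 3 (adjusted p = 0.061 and 0.055) and that of RRM2 without DMSO 24 h replicate 2 (-0.14, adjusted p = 0.077). CDC20 was lost under 14 alternatives in all, which included each of the 6 libraries but DMSO 4 h replicate 3 (adjusted p = 0.052 to 0.15) and each of 4 HEK293T libraries (0.057 to 0.06).

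DMSO at 4 h did not differ detectably from untreated cells. With edgeR 0 members were called, and 0% of all genes were called higher and 0% lower, although 1158 of the 14012 genes had an unadjusted p below 0.05. Limma voom called 0 genes, and DESeq2 called 8 higher and 8 lower, none of them a member. Without a filter beyond 1 count, 1 member, CENPE, was called higher.

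Between the lines in DMSO at 24 h, 17 members were higher in HEK293T and 20 lower, against 41.9% and 41.3% of all genes, which are shares near those of all genes. Of these 37 calls 19 stood under every alternative, and some changed sign under an alternative, as listed under the processing. CCND3 (-3.38) and CCND1 (-3.13) were the farthest below OCI-AML3, followed by CDK6 (-1.73) and CDT1 (-1.31). CENPE (1.57), CDC25A (1.49), E2F2 (1.39) and KIF11 (1.29) were the farthest above among the 47 tested members, and CCND2, not tested, is described with the D-type cyclins. All 8 had an adjusted p of at most 4.1e-07. These lines differ in much besides treatment, and scaling by library size moved the median of all genes from 0.02 to 0.28 and gave 26 members higher and 12 lower.

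Genes of the same pathways outside the 48 were taken as lists. Of 7 CDK inhibitors, CDKN2B (p15) rose most, at 1.43, 1.25 and 1.73 CPM with DMSO and 8.50, 6.06 and 4.29 CPM with tunicamycin at 4 h (log2 fold change 2.09, SE 0.23, adjusted p = 1.4e-07), and 1.33, 0.911 and 1.12 CPM and 4.20, 4.81 and 5.09 CPM at 24 h (log2 fold change 2.07, SE 0.25, adjusted p = 6.8e-07). In HEK293T CDKN2B lay at 0.11 and was not called, and in the annotation it overlaps CDKN2B-AS1 on the other strand. CDKN1A (p21) was higher at 4 h (log2 fold change 0.48, SE 0.10, adjusted p = 0.00052), at 78.3, 65.8 and 67.3 CPM and 112, 92.6 and 90.6 CPM, and lower at 24 h (log2 fold change -0.56, SE 0.10, adjusted p = 6.5e-05), at 159.6, 159 and 153 CPM and 119.7, 99.8 and 100.2 CPM. Its level in DMSO had itself risen between the times (1.16, adjusted p = 7.4e-09).

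CDKN1B (p27) was not called at 4 h (0.09) and was higher at 24 h in OCI-AML3 (log2 fold change 0.47, SE 0.07, adjusted p = 4.1e-06). In HEK293T it was 0.24 (adjusted p = 0.012), lost without DMSO replicate 3 or tunicamycin replicate 2 (adjusted p = 0.077 and 0.063). CDKN2C (p18) was lower in HEK293T (log2 fold change -0.45, SE 0.09, adjusted p = 0.00037). In OCI-AML3 CDKN2C was -0.26 at 4 h and -0.26 at 24 h, and tunicamycin replicate 3 of either time carried the call (adjusted p = 0.066 and 0.11 without it), as did DMSO 4 h replicate 1 and DMSO 24 h replicate 3 (0.097 and 0.085). CDKN2A (p16 and ARF) was lower at 24 h in OCI-AML3 (log2 fold change -0.78, SE 0.18, adjusted p = 0.001) and was not called at 4 h (0.15) or in HEK293T (-0.10). As for CDKN1A, its level in DMSO had risen between the times (0.79, adjusted p = 0.0011). CDKN1C (p57) and CDKN2D (p19) were called in none of the 3 tunicamycin comparisons, with -1.33, -0.26 and -0.36 for the sparsely counted CDKN1C (0 to 44 counts per library, and called at 4 h without DMSO replicate 1, -1.87, adjusted p = 0.017) and -0.39, 0.06 and -0.09 for CDKN2D.

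Of 59 other mitosis genes 26 were lower and 2 higher at 4 h, 48 lower and 1 higher at 24 h in OCI-AML3, and 23 lower and 3 higher in HEK293T. Over all genes 18.4% were lower and 19% higher at 4 h, 23.9% and 27.2% at 24 h, and 13% and 12.7% in HEK293T. Leaving out 1 library at a time gave 24 to 28, 44 to 50 and 18 to 23 lower. Several calls higher were lost without 1 library. At 4 h MAD1L1 was lost without DMSO replicate 2 or tunicamycin replicate 1, which left 1 (4 with the replicate block), and at 24 h CCNG2 was lost without DMSO replicate 2 or tunicamycin replicate 3, which left 0. In HEK293T FBXO5 and KIF15 were lost without DMSO replicate 1 or 2 or tunicamycin replicate 2 or 3, and with library sizes without TMM, which left 1. Removing GC and length trends also ended the call of CCNG2 at 24 h (0.058, adjusted p = 0.55) and gave 36 lower in HEK293T. At 24 h PTTG1 (securin) and UBE2S, an enzyme of the anaphase-promoting complex, were the lowest (-1.32 ± 0.08 and -1.26 ± 0.12 SE, adjusted p = 8.8e-12 and 2e-08). CCNG2 (cyclin G2) rose at 4 h from 18.7, 19.8 and 20.8 CPM to 64.1, 64.5 and 69.1 CPM (log2 fold change 1.74, SE 0.10, adjusted p = 1.1e-12). In HEK293T TACC3 and KIFC1 were lowest (-0.58 and -0.58).

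Of 49 other replication genes 11 were lower and 7 higher at 4 h, and 29 lower and 4 higher at 24 h. In HEK293T they were 8 and 2. Of all genes, 18.4% were lower and 19% higher at 4 h, 23.9% and 27.2% at 24 h, and 13% and 12.7% in HEK293T. The shares lower at 4 h and in HEK293T are near those of all genes and are no result about the list. Without tunicamycin replicate 2 at 4 h 4 were higher, and without DMSO replicate 1 or tunicamycin replicate 2 in HEK293T 5 were lower, both as with no filter beyond 1 count. With GC and length trends removed 17 were lower at 4 h, 2 higher at 24 h and 16 lower in HEK293T, and with the HEK293T groups fitted alone 5 were higher and 14 lower there. FEN1, the flap endonuclease, was lowest at 4 h (-0.83 ± 0.06 SE, adjusted p = 3e-10), and POLD2, a polymerase delta subunit, at 24 h (-0.76 ± 0.09, adjusted p = 3.5e-07). Their median was 0.00 at 4 h and -0.22 at 24 h.

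Of 16 genes of the RB, E2F and DREAM group 3 were lower and 3 higher at 4 h, 3 lower and 6 higher at 24 h, and 4 higher in HEK293T, where 19%, 27.2% and 12.7% of all genes were higher. The counts at 4 h are at this background and are no result about the group. Those higher later depended on the processing, with 1 at 24 h once GC and length trends were removed (LIN54, RBBP4, RBL1, RBL2 and TFDP2 were lost, and 7 were lower at 4 h). In HEK293T LIN52 and LIN54 were lost without DMSO replicate 2 or tunicamycin replicate 3 and with library sizes without TMM, which left 2. E2F8, a repressor E2F, was lower at both times in OCI-AML3 (-0.72 and -0.77, adjusted p = 2.6e-06 and 9.2e-07). Of 10 checkpoint kinases and adaptors 3 were higher and 2 lower at 4 h, 3 and 2 at 24 h, and 3 and 1 in HEK293T. Of all genes 18.4%, 23.9% and 13% were lower, so that no share lower stood far from that of all genes. Higher were 19%, 27.2% and 12.7% of all genes, and the share of the list lay farthest above this in HEK293T. There, leaving out 1 library gave 2 to 4 higher. At 24 h ATM and RAD17 were lost without DMSO or tunicamycin replicate 3, which left 1 higher, and at 4 h TOPBP1 without DMSO replicate 2 or 3, which left 1 lower. The number lower ranged from 0 to 3 in HEK293T under the alternatives and was 4 at 24 h with GC and length trends removed. RAD9A, a subunit of the 9-1-1 clamp, was higher in all 3 comparisons (0.95, 0.90 and 0.38, adjusted p = 2.1e-10, 1.2e-09 and 0.00029). In the annotation RAD9A overlaps 3 genes on its own strand and 5 on the other, POLD4 among the latter, and ATRIP overlaps TREX1 on the same strand. ATRIP, the partner of the kinase ATR, was lower in all 3 (-0.46, -0.38 and -0.23, adjusted p = 7.3e-05, 0.00057 and 0.039), but in HEK293T it was lost without DMSO replicate 2 or 3 (adjusted p = 0.13 and 0.12) and without tunicamycin replicate 1 or 3 (0.087 and 0.17). CHEK2 was lower at 24 h in OCI-AML3 (-0.73, adjusted p = 3.2e-07).

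Members with CHR letters in their promoter window had a median log2 fold change at 24 h of -0.65 (16 members), against -0.46 without (22 members). Members with E2F letters had -0.32 (13 members), against -0.67 without (25 members). At 4 h these 4 medians lay between -0.36 and -0.28. Members with a CCAAT box had -0.486 at 24 h in OCI-AML3 (25 members), against -0.488 without (13 members). In HEK293T the medians were -0.21 with CHR letters and -0.10 without, and -0.03 with E2F letters and -0.21 without. For the CCAAT box they were -0.14 with and -0.18 without there. The motif groups largely repeat the phase lists, and these values carry no test.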

How the data were processed

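The authors sequenced polyadenylated RNA from 21 libraries, aligned the reads to GRCh38 with STAR and quantified genes with RSEM. The deposited values are RSEM expected counts per Ensembl gene, not normalized, in which reads that fit several genes are divided by a model. Per library, 3.54 to 4.22% of all values, zeros included, had a decimal part other than exactly 0, and counts were rounded before testing. Whether counting used strand is not given in the sources used here, and 25 of the 48 members overlap another annotated gene.

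Symbols, positions and exon lengths came from the reference annotation on GRCh38, matched by Ensembl identifier (60401 of 60671 rows). The filter asked for 1 CPM or more in 8 or more libraries and left 14012 genes, 47 of them members. All 7 groups were fitted together with TMM scaling and the quasi-likelihood test of edgeR 4.0.16 (R 4.3.3), with Benjamini-Hochberg adjustment over all tested genes. Calls were made where the adjusted p did not exceed 0.05, and a gene passed both thresholds if its log2 fold change also exceeded 1 in size. Fold changes in the text come from this fit, and per-library levels are CPM on TMM-scaled library sizes. The study's methods name limma voom for counts. Here that test (limma 3.58.1) is an alternative, beside DESeq2 1.42.0, other scalings and filters, the groups of a comparison alone, the replicate number as a block and leaving out each library. List levels per library are the mean of log2(CPM + 1).

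Full values are given for up to 6 members with the largest called change per comparison and for the leading member of each role. The members, lists and comparisons were chosen by name and role, with earlier results of these data known. The scripts were tested on simulated data. No 2 libraries of a group held identical values. Promoter windows came from RefSeq (GRCh38.p14), and 10 members had none there.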

Additional observations from a re-analysis of the deposited data

Results flagged for a closer look

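For 7 effects on the 48 members the interaction passed an adjusted p of 0.05 (edgeR's quasi-likelihood test) and exceeded 1 on the log2 scale. The difference between tunicamycin and DMSO was thus not the same at 24 h as at 4 h in OCI-AML3, or in HEK293T as in OCI-AML3. An interaction takes in shifts of the DMSO level as well as of the tunicamycin level. The comparison of times uses 6 libraries at each time, and the comparison of lines 6 libraries of each line.

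Between the times, the effect on CCNE2, CCND1 and CCNE1 was higher at 24 h by 1.594, 1.384 and 1.286 (adjusted p = 8.1e-06, 9.2e-09 and 2.1e-07). All 3 cyclin genes were lower in each of the 3 tunicamycin libraries at 4 h, and at 24 h the libraries of CCND1 and CCNE2 overlapped with DMSO. From 4 h to 24 h in DMSO alone, CCNE2, CCND1 and CCNE1 moved by -0.70, 0.72 and -0.53 on the log2 scale.

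The effect on CDC20, CDC25C and PLK1 was lower at 24 h by interactions of -1.306, -1.218 and -1.218 (adjusted p = 4e-09, 5.3e-06 and 3.6e-09). Their tunicamycin libraries overlapped with DMSO at 4 h and lay below it in all 3 libraries at 24 h. CDC25C was called in opposite directions at the 2 times. From 4 h to 24 h in DMSO alone, CDC20, CDC25C and PLK1 moved by -0.19, 0.41 and 0.03 on the log2 scale.

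Between the lines at 24 h, the effect on CCND1 was lower in HEK293T by an interaction of -1.088 (adjusted p = 2.3e-06). All 3 tunicamycin libraries of HEK293T lay below DMSO, at a level near 8 CPM. Outside the 48, the effect on CDKN1A was lower at 24 h than at 4 h by an interaction of -1.047 (adjusted p = 7.8e-06), and that on CDKN2B was lower in HEK293T than in OCI-AML3 by an interaction of -1.961 (adjusted p = 7.7e-05). In DMSO alone CDKN1A rose by 1.16 on the log2 scale between the times.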

How the results depend on the processing

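Of the called members, 28 of 32 stayed called under every alternative at 4 h, 30 of 36 at 24 h in OCI-AML3, 18 of 22 in HEK293T, 14 of 23 for DMSO 24 h against 4 h, 19 of 37 between the lines, 23 of 26 for the interaction with time and 20 of 27 for that with cell line. Members that were not called but passed in the same direction under at least 1 alternative numbered 3 at 4 h, 9 at 24 h, 13 in HEK293T, 17 for DMSO, 10 between the lines, 8 for the interaction with time and 13 for that with cell line. The median log2 fold change of the G2/M list stayed below that of all genes in the 3 tunicamycin comparisons under every alternative. Leaving out 1 library at a time moved the number of members higher between 1 and 3 at 24 h in OCI-AML3, between 1 and 3 in HEK293T and between 4 and 7 for DMSO 24 h against 4 h. The number past both thresholds moved between 0 and 1 in HEK293T and for DMSO, and the number lower for the interaction with cell line between 1 and 4. The same moved the S phase median between -0.338 and -0.209 at 24 h and between -0.238 and -0.175 for DMSO, and the G2/M median between -0.832 and -0.73 and between -0.161 and -0.074.

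With no filter beyond 1 count, the G2/M median was -0.356 at 4 h and -0.85 at 24 h and the S phase median -0.33 at 24 h. That setting gave 2 members higher at 24 h, 1 past both thresholds in HEK293T and 1 higher in DMSO at 4 h against untreated. With 1 CPM in 3 libraries, 1 member passed both thresholds in HEK293T and 1 was lower for the interaction with cell line. Limma voom gave 2 higher at 24 h, and the groups of the comparison alone 4 higher in HEK293T. DESeq2's test and its size factors in edgeR each gave 7 higher for DMSO, and the size factors 1 lower for the interaction with cell line. Without TMM, 30 were lower for DMSO (S phase median -0.34, G2/M -0.228), 26 higher and 12 lower between the lines, and 5 lower for the interaction with cell line. Over all genes, scaling without TMM gave 2129 higher and 4610 lower for DMSO, against 2929 and 3041, and 7101 and 4809 between the lines, against 5868 and 5792. Removing GC and length trends, an alternative chosen after seeing the data, gave 2 higher at 24 h, a G2/M median of -0.862 there and of -0.051 for DMSO. It also ended the calls of CCNE1, CDT1 and CCND3 at 24 h and of CCNA2, MCM6, TOP2A, CDC6 and RRM2 for DMSO. The cause of these moves was not tested.

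Of the values that had passed the test, those that reversed were ORC4, outside the 48, at 24 h in OCI-AML3 (-0.094 with trends removed) and 10 members between the lines in DMSO. With trends removed the latter were CCNA2 -0.118, CCNE2 -0.092, CDC20 0.2, CDK4 0.063, MAD2L1 -0.31, MCM2 0.045, MCM7 0.009 and MYBL2 0.278. Without TMM they were CDK4 0.049, MYBL2 0.039 and PCNA 0.011, and with no filter CCNA2 -0.008 and MCM3 -0.06. Some members that had not passed also changed sign and then passed. With trends removed these were E2F1 at 24 h in OCI-AML3 (0.149), TOP2A for the interaction with time (-0.158) and, between the lines, TOP2A -0.708, BUB1 -0.36, CCNB1 -0.164 and BIRC5 0.146. Between the lines without TMM they were BIRC5 0.175, BUB1B 0.225 and MCM4 0.209, and with no filter TOP2A -0.202.

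Replicate numbers are shared between groups, but the deviations of same-numbered libraries were weakly correlated (0.0989, 0.0135 and 0.132 at 4 h, 0.0149, -0.0785 and -0.139 at 24 h, 0.0438, 0.0577 and 0.119 in HEK293T), so the numbers were not taken to pair libraries. In HEK293T every library correlated best with its own number. With the replicate block, 4 members were higher and 28 lower at 4 h, 1 and 35 at 24 h, 3 and 21 in HEK293T, and 6 and 19 for DMSO, all within 1.5 times of the unblocked counts.

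With 3 libraries a group and 13838480 to 19961819 counts each, changes of CCND2 in OCI-AML3, at 0 to 2 counts per library, were not detectable at this depth. RSEM's division of shared reads adds an error that the counts do not show.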
